A study of Mus musculus with 6 samples.

Results

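Mki67 and 9 genes of the mitotic spindle and of cell division (Nusap1, Tpx2, Prc1, Anln, Top2a, Ckap2, Ckap2l, Aspm and Hmmr) were followed through RNA sequencing of 2 sorted populations of dysplastic stem cells. The 10 genes were found by symbol among 23420 gene rows, and all 10 passed the filter on low counts. They were selected on the levels of Mki67 and Nusap1 in these same libraries, which stood higher in the population labelled TP-DSCs than in that labelled DP-DSCs. Differences between the populations are therefore given for these genes as a description, with no test. There were 3 libraries of TP-DSCs and 3 of DP-DSCs, all from cells isolated with a cell sorter (flow cytometry) out of Meta4, a line of mouse organoids with dysplastic epithelium. DP and TP are taken to mean double and triple positive cells, with the surface antigens CD133 and CD166 in both and the v6 form of CD44 added in TP-DSCs, and the organoids as grown from mouse stomach. These readings rest on knowledge of the study, since the labels give neither the antigens nor a genotype, treatment, time or age. The organoids are 1 line, and the labels call the samples of each population independent without saying that they came from separate cultures, so a p-value here covers no more than the spread between such samples, and that spread may be technical.

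As background, a dividing cell builds a spindle of microtubules, condenses and untangles its chromosomes, pulls them apart and pinches itself apart at the spindle midzone. Transcripts of the genes for this work are made mainly in G2 phase and mitosis and are low in resting cells, so in a bulk sample they track how many cells are cycling and where in the cycle they stand. Their promoters often carry a cell cycle homology region, the letters TTTGAA or TTTAAA, to which the MuvB complex binds, together with CCAAT boxes bound by NF-Y. In a bulk sample, fewer cycling cells and less RNA per cycling cell cannot be told apart.

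RefSeq promoters, from 250 bases before to 50 bases after each start in GRCm38.p6 (the assembly of mm10), were at hand for 9 of the 10 genes, all except Tpx2, and Prc1 had 2 starts. The word TTTGAA was found on either strand in 8 of these 9 genes and in 17.9% of all 32851 promoters of that table. TTTAAA, which reads the same on both strands, was found in Aspm only, and in 13.2% of all promoters. CCAAT was found on either strand in 7 of the 9 genes and in 37.4% of all promoters. Both kinds of motif, CCAAT with TTTGAA or TTTAAA, stood together in 7 of the 9 genes and in 10.7% of all promoters. Anln had TTTGAA and no CCAAT, and Nusap1 had none of these letters in its window. Matches are descriptions of letters and not binding sites, and no 2 matches in these genes overlapped. The 5 promoters shown are those of the 2 genes the set was chosen for, of Top2a with the most CCAAT matches, and of Ckap2 and Ckap2l, 2 related genes whose levels parted most. They run 5′ to 3′ in the direction of the gene, with the matches to any of these words, or to their reverse complements, in capitals.
Mki67 promoter, chr7:135716330-135716629, minus strand: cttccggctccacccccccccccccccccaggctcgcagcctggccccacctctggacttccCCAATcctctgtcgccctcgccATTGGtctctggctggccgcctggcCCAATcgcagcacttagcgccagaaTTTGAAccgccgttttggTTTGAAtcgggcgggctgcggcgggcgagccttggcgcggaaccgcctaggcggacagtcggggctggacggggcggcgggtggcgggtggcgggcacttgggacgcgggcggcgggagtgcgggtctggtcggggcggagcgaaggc
Nusap1 promoter, chr2:119618048-119618347, plus strand: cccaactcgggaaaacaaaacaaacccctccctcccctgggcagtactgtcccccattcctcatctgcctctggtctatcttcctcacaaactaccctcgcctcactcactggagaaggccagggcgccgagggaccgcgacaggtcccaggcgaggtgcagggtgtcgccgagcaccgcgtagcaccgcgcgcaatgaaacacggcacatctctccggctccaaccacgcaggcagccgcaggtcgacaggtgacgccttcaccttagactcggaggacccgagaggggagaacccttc
Top2a promoter, chr11:99024140-99024439, minus strand: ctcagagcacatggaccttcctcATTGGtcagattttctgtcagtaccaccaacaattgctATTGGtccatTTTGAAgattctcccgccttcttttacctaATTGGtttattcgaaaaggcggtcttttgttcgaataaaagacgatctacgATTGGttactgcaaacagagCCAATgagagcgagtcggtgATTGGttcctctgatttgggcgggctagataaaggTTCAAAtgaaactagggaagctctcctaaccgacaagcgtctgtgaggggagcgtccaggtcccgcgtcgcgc
Ckap2 promoter, chr8:22185770-22186069, minus strand: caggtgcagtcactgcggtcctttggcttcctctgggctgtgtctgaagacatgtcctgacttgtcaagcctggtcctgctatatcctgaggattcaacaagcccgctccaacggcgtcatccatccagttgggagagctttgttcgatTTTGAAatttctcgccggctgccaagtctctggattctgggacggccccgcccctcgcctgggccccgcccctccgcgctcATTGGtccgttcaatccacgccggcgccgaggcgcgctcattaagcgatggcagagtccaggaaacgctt
Ckap2l promoter, chr2:129297163-129297462, minus strand: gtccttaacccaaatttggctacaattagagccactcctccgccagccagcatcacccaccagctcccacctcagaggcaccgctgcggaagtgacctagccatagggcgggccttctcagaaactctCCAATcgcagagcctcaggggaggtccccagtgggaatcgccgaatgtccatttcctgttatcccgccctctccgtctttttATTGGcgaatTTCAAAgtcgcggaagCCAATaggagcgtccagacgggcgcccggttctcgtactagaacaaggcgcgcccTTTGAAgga

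Reads in genes numbered 17015581 to 31068454 per TP-DSC library and 27027919 to 32671039 per DP-DSC library. Genes with at least 1 read numbered 10571 to 10982 in TP-DSCs and 12504 to 14434 in DP-DSCs, and 16.2 to 20.3% of reads in TP-DSCs and 14.1 to 15.4% in DP-DSCs fell in no gene. All 7 epithelial markers, led by Krt8 and Krt18, had reads and summed to 8237 to 9702 CPM in TP-DSCs and 8761 to 10587 CPM in DP-DSCs. Of 7 fibroblast markers 2 had reads (summed level 0 to 2.90 CPM in TP-DSCs and 0.704 to 3.19 CPM in DP-DSCs), led by Pdgfra and Col1a1, while Col1a2, Col3a1, Dcn, Lum and Pdgfrb were at 0 in all 6 libraries. Among immune markers 4 had reads (summed level 0 to 17.3 CPM in TP-DSCs and 5.14 to 48.0 CPM in DP-DSCs), led by Cd68 and Csf1r, with Cd3e at 0. Of 5 endothelial markers 3 had reads (0 to 4.995 CPM in TP-DSCs and 0.245 to 1.78 CPM in DP-DSCs), led by Tek and Kdr, with Pecam1 and Emcn at 0. A count of 0 allows up to 3 counts, which is 0.176 CPM in the shallowest library (TP-DSCs replicate 2), and covers counting error only. The library names carry the prefix 3840 (replicate 1 of each population) or 4140 (replicates 2 and 3 of each); the labels do not say what the prefix marks. The part of reads outside genes, of the number of genes with reads and of the immune markers in the levels below was not tested.

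Genes that act on chromosomes are given first. Mki67 encodes Ki-67, which coats mitotic chromosomes and keeps them apart, and is widely used to mark cycling cells. It stood at 244, 369 and 305 CPM in TP-DSCs replicates 1, 2 and 3, against 129, 136 and 103 CPM in DP-DSCs replicates 1, 2 and 3 (CPM, reads scaled to a common total of reads in genes). The lowest TP-DSC library lay above the highest DP-DSC library, and of the 10 genes Mki67 varied least within TP-DSCs, with an SD of log2 CPM of 0.30 there and 0.21 in DP-DSCs. Mki67 averaged 306 ± 62.3 CPM in TP-DSCs and 122 ± 17.4 CPM in DP-DSCs (SD, n = 3 each), and its log2 fold change, TP-DSCs over DP-DSCs, came to 1.30 ± 0.20 (SE). Top2a encodes topoisomerase II alpha, which untangles sister DNA strands. It stood at 169.8, 408 and 348 CPM in TP-DSCs replicates 1, 2 and 3, against 113, 235 and 188 CPM in DP-DSCs replicates 1, 2 and 3. TP-DSCs replicate 1 lay below DP-DSCs replicates 2 and 3, so the populations overlapped, and the log2 fold change was 0.76 ± 0.34 (SE). The ratio of Mki67 to Top2a reads was 1.44, 0.904 and 0.877 in TP-DSCs replicates 1, 2 and 3 and 1.14, 0.577 and 0.548 in DP-DSCs replicates 1, 2 and 3. It was highest in replicate 1 of each population, which share the prefix 3840.

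The next genes, from Nusap1 to Ckap2l, encode proteins of spindle microtubules and spindle poles. Nusap1 encodes a protein that bundles microtubules beside the chromosomes. It stood at 38.8, 56.4 and 76.9 CPM in TP-DSCs replicates 1, 2 and 3, against 14.7, 25.0 and 23.3 CPM in DP-DSCs replicates 1, 2 and 3, with no overlap between the populations and a log2 fold change of 1.43 ± 0.34 (SE). Nusap1 is the gene of the set whose promoter, printed above, held none of the motif letters, and it had the largest fold change; the relation of these facts was not tested. Tpx2, which activates the kinase Aurora A and starts microtubules near chromatin, stood at 44.6, 101 and 46.0 CPM in TP-DSCs replicates 1, 2 and 3, against 29.7, 80.3 and 50.2 CPM in DP-DSCs replicates 1, 2 and 3. Its libraries overlapped widely, with TP-DSCs replicates 1 and 3 below DP-DSCs replicates 2 and 3, and its log2 fold change of 0.25 ± 0.43 (SE) was the smallest of the 10. That value was -0.20 without TP-DSCs replicate 2 and -0.047 without DP-DSCs replicate 1. Hmmr, a hyaluronan-binding protein that also sits at spindle poles, stood at 20.4, 72.2 and 53.3 CPM in TP-DSCs replicates 1, 2 and 3, against 19.4, 41.9 and 26.6 CPM in DP-DSCs replicates 1, 2 and 3. TP-DSCs replicate 1 was close to the lowest DP-DSC library, the other two exceeded the whole DP-DSC range, and the log2 fold change was 0.70 ± 0.47 (SE), or 0.33 without TP-DSCs replicate 2. Aspm, a protein of microtubule minus ends at the poles, stood at 32.1, 45.3 and 17.9 CPM in TP-DSCs replicates 1, 2 and 3, against 10.03, 24.6 and 14.1 CPM in DP-DSCs replicates 1, 2 and 3. Only TP-DSCs replicate 3 fell within the range of DP-DSCs, and the log2 fold change was 0.98 ± 0.52 (SE).

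Ckap2 and Ckap2l encode related proteins of the mitotic spindle, and these 2 genes differed most between TP-DSC libraries. Ckap2 stood at 23.4, 103 and 125 CPM in TP-DSCs replicates 1, 2 and 3, against 36.4, 46.4 and 36.1 CPM in DP-DSCs replicates 1, 2 and 3. In DP-DSCs it varied little, while in TP-DSCs replicate 1 lay below the whole DP-DSC range and replicates 2 and 3 lay well above them. Ckap2l stood at 40.5, 59.7 and 11.5 CPM in TP-DSCs replicates 1, 2 and 3, against 13.2, 21.7 and 20.2 CPM in DP-DSCs replicates 1, 2 and 3. Here TP-DSCs replicate 3 lay below the whole DP-DSC range, with 356 reads, and replicates 1 and 2 lay above them. The ratio of Ckap2 to Ckap2l reads was 0.579, 1.72 and 10.9 in TP-DSCs replicates 1, 2 and 3, against 2.76, 2.14 and 1.79 in DP-DSCs replicates 1, 2 and 3. The log2 fold changes, 1.03 ± 0.52 (SE) for Ckap2 and 1.02 ± 0.60 (SE) for Ckap2l, were close to each other although the libraries behind them differed. Without TP-DSCs replicate 3 that of Ckap2 was 0.64, and without TP-DSCs replicate 2 that of Ckap2l was 0.57. The standard deviation of log2 CPM in TP-DSCs and DP-DSCs was 1.32 and 0.21 for Ckap2 and 1.24 and 0.39 for Ckap2l.

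The last of the 10 genes act at the midzone and in the final cut. Prc1 cross-links antiparallel microtubules in the midzone. It stood at 59.3, 103 and 132 CPM in TP-DSCs replicates 1, 2 and 3, against 34.9, 75.3 and 53.1 CPM in DP-DSCs replicates 1, 2 and 3, with TP-DSCs replicate 1 inside the range of DP-DSCs and a log2 fold change of 0.83 ± 0.34 (SE). Anln encodes anillin, a scaffold of the contractile ring. It stood at 38.2, 89.9 and 57.1 CPM in TP-DSCs replicates 1, 2 and 3, against 29.9, 57.4 and 51.7 CPM in DP-DSCs replicates 1, 2 and 3, with TP-DSCs replicate 1 within the range of DP-DSCs, replicate 3 just below the highest DP-DSC library and a log2 fold change of 0.39 ± 0.36 (SE). That of Anln was 0.052 without TP-DSCs replicate 2 and 0.15 without DP-DSCs replicate 1.

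**Figure D1:**
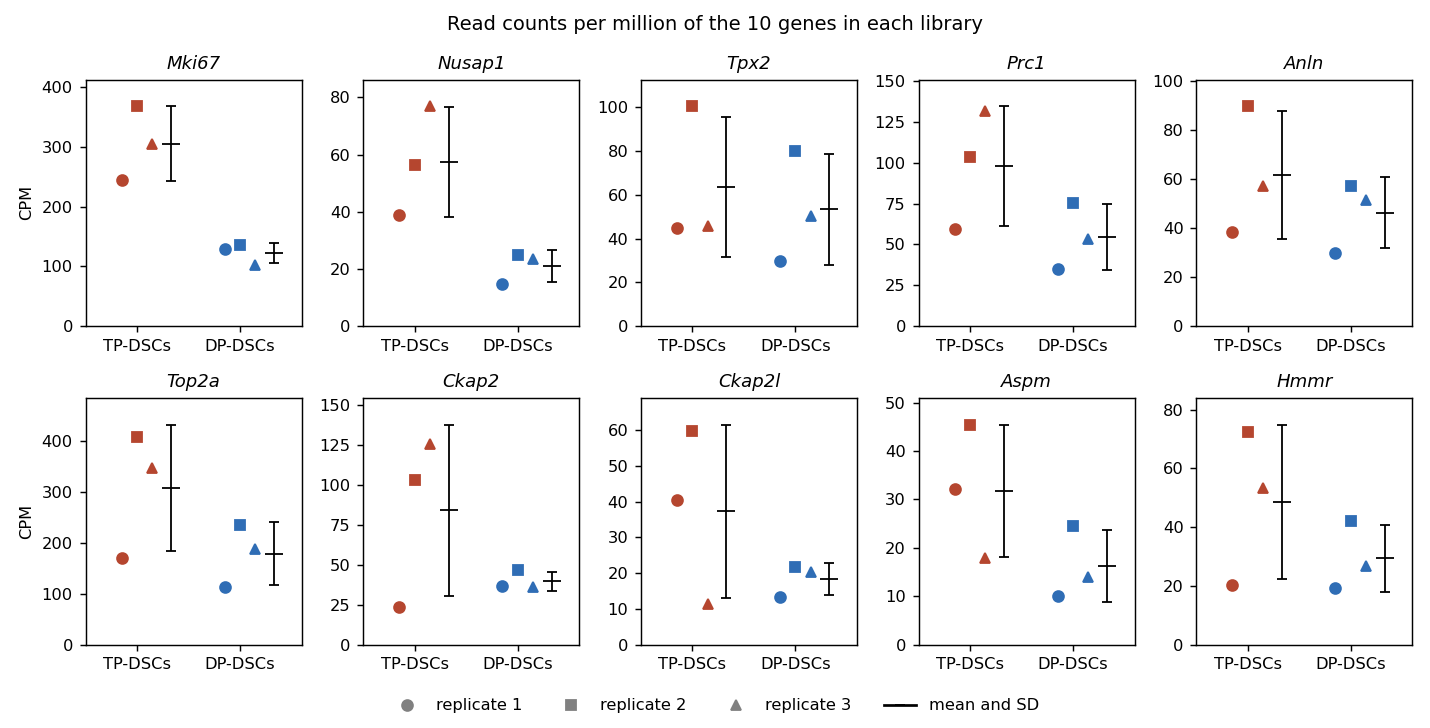
Level in CPM (linear axis from 0) of the 10 genes, 1 panel a gene, with TP-DSCs on the left and DP-DSCs on the right; symbols are libraries and the black mark is the mean with its SD (n = 3). Mki67 and Nusap1 are the genes with no overlap between populations, and Ckap2 and Ckap2l spread widest within TP-DSCs, from 23.4 to 125 and from 11.5 to 59.7 CPM.

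Set side by side, all 10 log2 fold changes of TP-DSCs over DP-DSCs were above 0, from 0.25 for Tpx2 to 1.43 for Nusap1, with a median of 0.91. Over all 11925 tested genes the median was -0.018, and 48.3% of genes were above 0. The TP-DSC libraries were all above the DP-DSC range for 2 of the 10, Mki67 and Nusap1, and for 3.87% of tested genes, and all below it for 0 of the 10 and 8.56%. Since the same contrast chose the set, nothing is read from these counts. Within prefix 4140, with 2 libraries of each population, both TP-DSC libraries lay above both DP-DSC libraries for 6 of the 10 (Mki67, Nusap1, Prc1, Top2a, Ckap2 and Hmmr) and for 17.2% of tested genes. The differences of mean log2 CPM within prefix 4140 had a median of 0.86 over the 10 genes and -0.12 over all tested genes. In the single pair of prefix 3840, which has no replicate check, the medians were 0.67 and -0.093. Mki67 differed by 1.503 in prefix 4140 and 0.92 in prefix 3840, and Nusap1 by 1.45 and 1.39. Aspm differed by 0.61 in prefix 4140 and 1.67 in prefix 3840, and Ckap2l by 0.32 and 1.61. Ckap2 had opposite signs, with 1.47 in prefix 4140 and -0.63 in prefix 3840. Hmmr was close to 0 in prefix 3840 (0.073) and stood at 0.89 in prefix 4140.

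**Figure D2:**
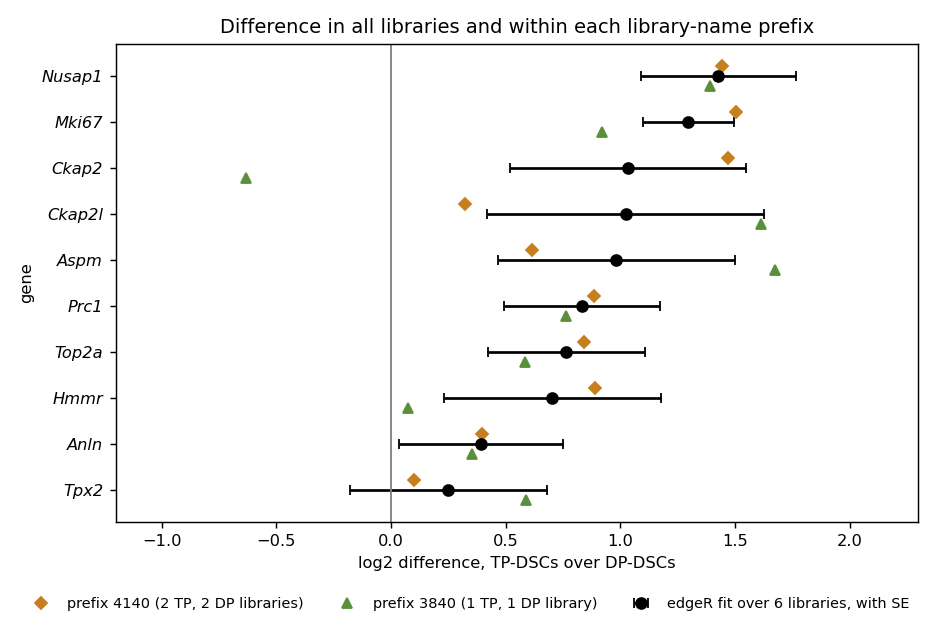
Log2 difference of TP-DSCs over DP-DSCs for each gene: black points with bars are the fit over 6 libraries and its SE, diamonds the difference within prefix 4140 and triangles the single pair of prefix 3840. Nusap1 lies near 1.43 in all 3, whereas the Ckap2 triangle lies below 0, at -0.63.

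How far the 10 genes moved together was read within each population, where the difference between populations plays no part. The library prefix does enter, since replicate 1 of each population has prefix 3840 and replicates 2 and 3 have prefix 4140. These profiles and the prefix contrast given below thus hold in part the same differences. In TP-DSCs all 10 genes were lower in replicate 1 than in replicate 2, by a median of 0.99 on the log2 scale (from 0.49 for Aspm to 2.13 for Ckap2), as were 57.5% of 9041 abundant genes. These abundant genes are those tested with reads in every library and a mean of at least 10 CPM. The place of TP-DSCs replicate 3 varied. It lay between the other two for Mki67, Tpx2, Anln, Top2a and Hmmr, above both for Nusap1, Prc1 and Ckap2, and below both for Ckap2l and Aspm. Of the abundant genes, 19.4, 21.4 and 16.7% had these 3 orders. In plain CPM, 8 of the 10 genes in DP-DSCs were highest in replicate 2, then replicate 3, then replicate 1. That order was held by 33.7% of the abundant genes. The exceptions, Mki67 and Ckap2, had replicate 2 highest and replicate 3 lowest. All 10 genes were higher in DP-DSCs replicate 2 than in replicate 3, by a median of 0.38 (log2), as were 61.3% of the abundant genes, and all 10 were lower in replicate 1 than in replicate 2, as were 61.3%.

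Each library can be summed up by how far the 10 genes lay from their own means over the 6 libraries. In TP-DSCs replicate 2 all 10 were above their means, by 0.94 ± 0.21 (log2 CPM, mean and SD over the 10 genes). In TP-DSCs replicate 3 they averaged 0.40 ± 0.73 with 7 above, and in TP-DSCs replicate 1 -0.12 ± 0.61 with 4 above. In DP-DSCs replicates 1, 2 and 3 they averaged -0.86 ± 0.21, 0.026 ± 0.33 and -0.38 ± 0.27, with 0, 6 and 1 genes above. The average of DP-DSCs replicate 2 lay above that of TP-DSCs replicate 1, so the populations overlapped as a set over the 6 libraries. Those 2 libraries differ in prefix, however. Within prefix 4140 the TP-DSC averages (0.94 and 0.40) lay above those of DP-DSCs (0.026 and -0.38). In the single pair of prefix 3840 the averages were -0.12 in TP-DSCs and -0.86 in DP-DSCs. Those deviations hold the difference between populations that chose the genes. Taken around the means of their own population instead, the 10 genes were all above in TP-DSCs replicate 2 and in DP-DSCs replicate 2, by 0.53 ± 0.29 and 0.43 ± 0.19. The SD over the 10 genes was 0.55 and 0.67 in TP-DSCs replicates 1 and 3, against 0.25 and 0.15 in DP-DSCs replicates 1 and 3, so the genes lay farther apart in those TP-DSC libraries. Within populations, a profile common to the 10 genes held 52.3% of the sum of squares of their log2 CPM around the population means (42.6% within TP-DSCs and 77.9% within DP-DSCs). For 10 genes with no relation that share would be 10%. Without Ckap2 and Ckap2l, left out after their values were seen, it was 59.7% within TP-DSCs and 81.5% within DP-DSCs. The 6 cell cycle lists described below leave out the 10 genes. Within DP-DSCs their shares ran from 10.7% (exit and arrest genes) to 81.6% (S phase genes). Mitotic kinases had 75.3%, chromosome structure 69.1% and spindle factors 68.9% there, so a high share was not particular to the 10 genes. Within TP-DSCs chromosome structure (51.2%) lay above the 10 genes and the other lists lay below them. The share for genes with no relation falls as a list grows. It would be 8.33% for the 12 chromosome structure genes and 2.13% for the 47 spindle factors. Shares of lists of unlike size are therefore not directly comparable. The genes share their libraries, so these shares describe 6 libraries and are no test.

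**Figure D3:**
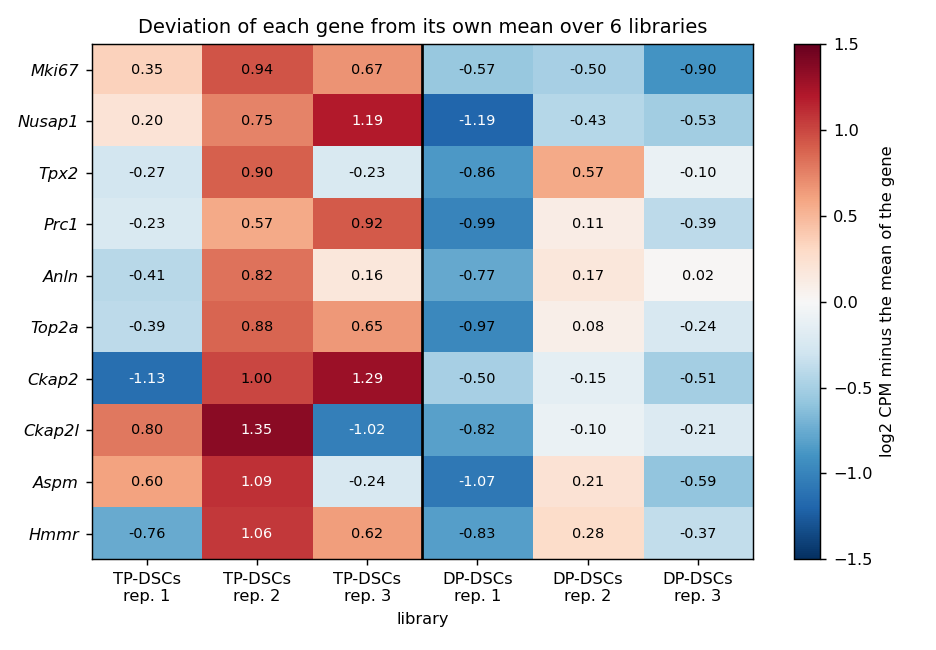
Log2 CPM of each gene (rows) in each library (columns) minus the mean of that gene over the 6 libraries, red above and blue below, with TP-DSCs left of the black line. The TP-DSCs replicate 2 column is red throughout and the DP-DSCs replicate 1 column blue throughout, while TP-DSCs replicate 3 runs from -1.02 for Ckap2l to 1.29 for Ckap2.

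The wider scatter in TP-DSCs was seen across abundant genes as well. The SD of log2 CPM was larger in TP-DSCs than in DP-DSCs for 9 of the 10 genes, with a median of 0.67 in TP-DSCs and 0.52 in DP-DSCs. It was larger in TP-DSCs for 72.5% of the abundant genes, with medians of 0.47 and 0.28. TP-DSC libraries also held fewer genes with reads, and the part of that in the scatter was not tested. Top2a was the gene nearest to the mean profile of the other 9 over the 6 libraries, with a root mean square difference of 0.19 (log2), followed by Anln (0.27), Prc1 (0.30) and Hmmr (0.33). Mki67 stood at 0.43, and Ckap2 (0.64) and Ckap2l (0.80) were farthest. The median distance of other abundant genes to the mean profile of the 10 was 0.66. All these distances hold the difference between populations that Mki67 and Nusap1 were selected on.

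Levels can be set against each other between genes only per length, here as CPM per kilobase of the longest coding transcript. On that scale Top2a was the highest of the 10 in both populations, averaging 59.1 in TP-DSCs and 34.2 in DP-DSCs, and Aspm the lowest, at 3.22 and 1.64 CPM per kilobase. In TP-DSCs the next were Prc1 (32.5), Ckap2 (32.3) and Mki67 (30.4), whose libraries overlapped with each other and with Top2a. The lowest Mki67 library (24.3) lay above the highest of Nusap1 (21.8). Then came Nusap1 (16.3), Tpx2 (14.6), Anln (13.4), Hmmr (12.5) and Ckap2l (11.9), which overlapped among themselves. In DP-DSCs the order below Top2a was Prc1 (18.0), Ckap2 (15.3), Tpx2 (12.2), Mki67 (12.2), Anln (10.1), Hmmr (7.53), Nusap1 (5.96) and Ckap2l (5.85). Neighbours in that order overlapped between libraries, with the exception of the step from Ckap2l down to Aspm, whose highest DP-DSC library (2.49) lay below the lowest of Ckap2l (4.21). In TP-DSCs this step was not clear, because Ckap2l stood at 3.65 in replicate 3 and Aspm at 4.59 in replicate 2.

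The 2 library-name prefixes each held both populations, and their difference was not used to choose the genes, so it could be tested. In an edgeR fit with population as the other term, all 10 log2 fold changes of prefix 4140 over prefix 3840 were above 0, with a median of 0.77, against a median of -0.0038 over all tested genes, 49.7% of which were above 0. By edgeR's quasi-likelihood test none of the 10 met an adjusted p of 0.05, and neither did any other gene (0% called). At an unadjusted p under 0.05 there were 4 of the 10 and 9.3% of all tested genes. Top2a had the smallest p, with 0.89 ± 0.18 (log2 fold change and SE, edgeR adjusted p = 0.215). Prc1 had 0.79 ± 0.23 (edgeR adjusted p = 0.402), Hmmr 1.06 ± 0.36 (edgeR adjusted p = 0.464) and Anln 0.77 ± 0.28 (edgeR adjusted p = 0.490). DESeq2 called Top2a and Prc1, and 5.57% of the genes it tested. Mki67 stood apart from these, at 0.030 ± 0.20, and Ckap2l and Aspm at 0.078 ± 0.68 and 0.29 ± 0.58. In limma-voom Ckap2l stood at -0.37, and Mki67, Ckap2l and Aspm each turned below 0 without 1 or another library. Ckap2, at 0.97 ± 0.50, came to 0.10 without TP-DSCs replicate 1 and 2.13 without DP-DSCs replicate 1.

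**Figure D4:**
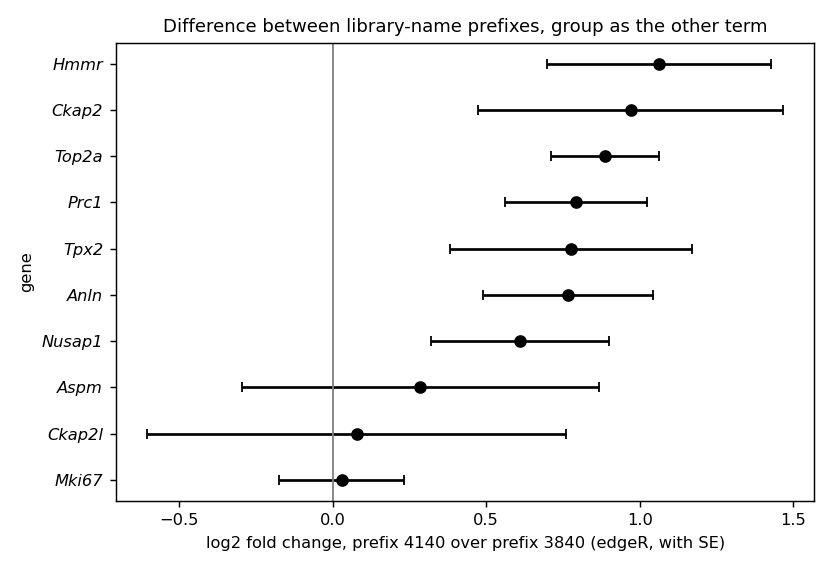
Log2 fold change of prefix 4140 (4 libraries) over prefix 3840 (2 libraries) for each gene, with its SE, from the edgeR fit with population as the other term. Hmmr, Ckap2, Top2a and Prc1 lie highest, between 0.79 and 1.06, and Mki67 lies at 0.030; without TP-DSCs replicate 1 Ckap2 would lie at 0.10.

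Other genes were ranked by how closely their profile over the 6 libraries followed that of Mki67, using the root mean square difference of log2 CPM after centring each gene on its mean. Among 9031 abundant genes outside the set the nearest were Sirt5 (0.17), a mitochondrial deacylase, Brca2 (0.19), a recombination protein, Smc4 (0.19), a condensin subunit, Xrcc3 (0.23), also of recombination, and Pkn3 (0.24), a protein kinase. Smc4 averaged 159.6 ± 48.1 CPM in TP-DSCs and 61.7 ± 4.96 CPM in DP-DSCs (SD, n = 3 each). The profile holds the difference that chose Mki67, so a near gene shares that difference by construction. With the other members ranked among all 9040 abundant genes, Nusap1 was at place 85, Prc1 at 339, Top2a at 437, Aspm at 764, Anln at 1362 and Hmmr at 1372. Ckap2, Tpx2 and Ckap2l were far down, at 2684, 3149 and 4840. Nearest to the mean profile of the 10 were Exosc9 (0.10), an exosome subunit, Dek (0.10), a chromatin protein, Mum1 (0.11), Scrn3 (0.11) and Tsfm (0.12), a mitochondrial translation factor. None of these 5 is known as a spindle gene. All 5 genes of each ranking stayed among the nearest 50 with any 1 library left out. Dek averaged 149 ± 64.7 CPM in TP-DSCs and 76.1 ± 23.0 CPM in DP-DSCs (SD, n = 3 each).

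The wider division machinery was described from 6 lists that leave out the 10 genes. In edgeR's quasi-likelihood test of TP-DSCs over DP-DSCs no gene of any list reached an adjusted p of 0.05, and none did among all 11925 tested genes (0% called in either direction), where an unadjusted p under 0.05 was met by 171 higher and 556 lower genes (1.43 and 4.66%). DESeq2 called 0.326% of its tested genes higher and 1.83% lower. Of 47 other spindle and midzone factors, 37 had a log2 fold change above 0, the median was 0.32, 8 were higher and 0 lower by unadjusted p (under 0.05), while DESeq2 called 4 higher (Cenpf, Cenpe, Kif20b and Kif4) and 0 lower. The median of that list was 0.18 without TP-DSCs replicate 2, 0.20 without DP-DSCs replicate 1 and 0.59 without DP-DSCs replicate 2. Cenpf, an outer kinetochore protein, averaged 86.8 ± 39.9 CPM in TP-DSCs and 21.3 ± 1.14 CPM in DP-DSCs, with a log2 fold change of 1.98 ± 0.37 (edgeR adjusted p = 0.121). Cenpe, a kinetochore motor, averaged 74.7 ± 26.3 CPM in TP-DSCs and 23.0 ± 6.02 CPM in DP-DSCs, with a log2 fold change of 1.69 ± 0.32 (edgeR adjusted p = 0.121). Kif20b, a mitotic kinesin, averaged 49.97 ± 27.8 CPM in TP-DSCs and 14.8 ± 3.51 CPM in DP-DSCs, with a log2 fold change of 1.72 ± 0.46 (edgeR adjusted p = 0.196). The populations did not overlap for these 3 and, among genes named after their values were seen, for Kif4 (1.48), Kif11 (1.34) and Dlgap5 (0.89, log2 fold changes).

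Of 20 mitotic kinases, cyclins and anaphase genes, 18 had log2 fold changes over 0 (median 0.56), 1 was higher at an unadjusted p under 0.05, and no gene passed in DESeq2. Their median was 0.28 without DP-DSCs replicate 1 and 0.89 without DP-DSCs replicate 2. Ube2c, the ubiquitin-conjugating enzyme of the anaphase-promoting complex, averaged 107 ± 23.0 CPM in TP-DSCs and 59.6 ± 30.1 CPM in DP-DSCs, with a log2 fold change of 0.84 ± 0.33 (edgeR adjusted p = 0.687). The kinases Cdk1 and Plk1 had log2 fold changes of 0.82 ± 0.37 and 0.68 ± 0.32 and overlapping libraries. Bora, which helps activate Plk1 and was named after its values were seen, was the 1 gene of the list with all TP-DSC libraries below all of DP-DSCs (log2 fold change -0.82). Of 12 tested genes of mitotic chromosome structure, 10 were above 0 with a median of 0.55, and DESeq2 called Smc4. The median came to 0.16 without TP-DSCs replicate 2, 0.36 without DP-DSCs replicate 1 and 0.88 without DP-DSCs replicate 2. Smc4 had a log2 fold change of 1.33 ± 0.24 with separated libraries (edgeR adjusted p = 0.121), the condensin II subunit Ncapd3 0.77 ± 0.34 and Hmgb2, a chromatin-bending protein, 0.66 ± 0.35. Of 30 S phase genes, 22 were above 0 with a median of 0.22, and 2 were higher at an unadjusted p under 0.05. Leaving out 1 library turned the sign of that median, which was -0.10 without DP-DSCs replicate 1, 0.067 without TP-DSCs replicate 2, 0.59 without DP-DSCs replicate 2 and 0.013 in prefix 4140 alone. Gmnn, which holds back relicensing of DNA, had 0.88 ± 0.36, the polymerase subunit Pola1 0.90 ± 0.37 and the licensing factor Cdt1 0.58 ± 0.28, and Pola1 and Cdt1 had separated libraries.

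The factors that control genes of this kind stood near 0 as a group. Of 19 tested transcription factors of G2 and M genes, 10 lay over 0 and 9 under it (median 0.014), with none at an unadjusted p under 0.05. With 1 library left out their median ran from -0.084 (without DP-DSCs replicate 1) to 0.26 (without DP-DSCs replicate 2). Foxm1, an activator of mitotic genes, averaged 40.7 ± 13.0 CPM in TP-DSCs and 20.4 ± 12.5 CPM in DP-DSCs, with a log2 fold change of 0.996 ± 0.47 (edgeR adjusted p = 0.957). The pocket protein Rbl1 had a log2 fold change of 0.76 ± 0.34, and Rbbp4, a subunit of MuvB and of other chromatin complexes, -0.42 ± 0.26. Of 14 genes of cell cycle exit and arrest, 7 lay over 0 and 7 under it. Their median was 0.024, and -0.28 without TP-DSCs replicate 1. The inhibitors Cdkn2c, Cdkn2a and Cdkn2b of cyclin D kinases had log2 fold changes of 1.64 ± 0.73, -0.72 ± 0.36 and -0.83 ± 0.53, and none passed. Of the 14 genes only Cdkn2c had separated libraries, with TP-DSCs above, as did 3.87% of all tested genes.

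**Figure D5:**
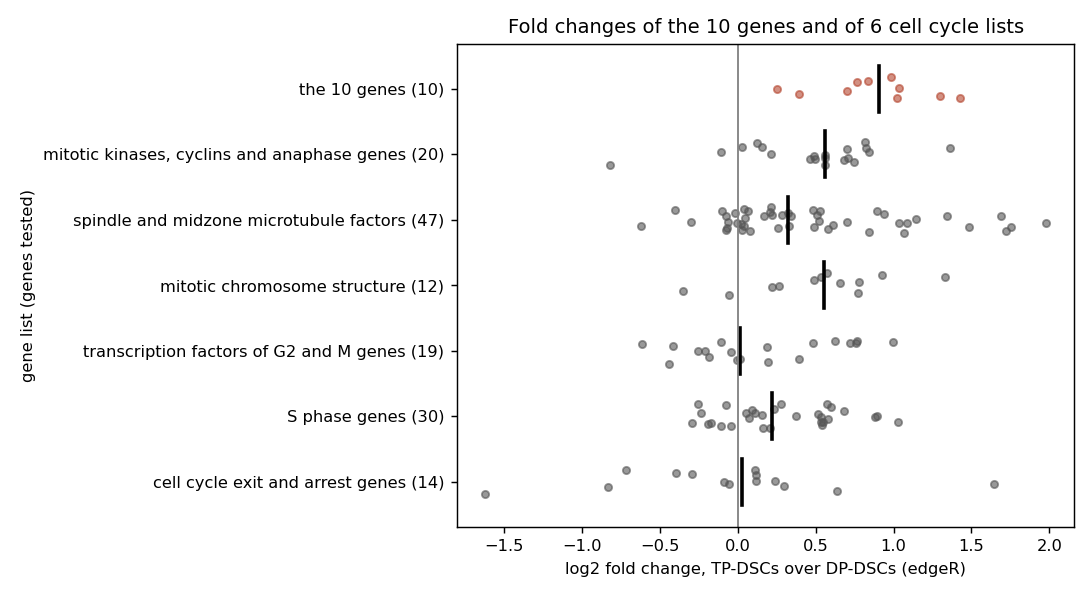
Log2 fold change of TP-DSCs over DP-DSCs (edgeR) for each tested gene of the 10-gene set (red) and of 6 cell cycle lists (grey), with the number of genes in brackets; vertical position within a row is arbitrary and black bars are medians. The medians run from 0.91 for the 10 genes, through 0.56 for mitotic kinases and 0.55 for chromosome structure, to 0.014 for the transcription factors.

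The 10 genes share transcript properties that the choice did not use. Their longest coding transcripts in GENCODE M21 had 41.8 to 47.8% G and C, with a median of 44.8%, against a median of 50.2% over 8552 abundant genes with a transcript. Their lengths ran from 2593 bases (Ckap2) to 10061 bases (Mki67), with a median of 4128 bases against 3231. With the abundant genes cut into 5 equal bins by G and C, all 10 were in the lowest 2 bins. From the lowest to the highest bin, the median log2 fold change of TP-DSCs over DP-DSCs was 0.14, 0.050, -0.021, -0.067 and -0.10. With a trend of each library on G and C content and length removed, the 10 genes had log2 fold changes from 0.21 (Tpx2) to 1.30 (Nusap1) with a median of 0.76, all above 0. Mki67 then had 1.02, against 1.30 without that step. Exons of Nusap1 and Prc1 overlap exons of genes on the other strand, Oip5 and Rccd1, and whether the counting used strand is not given in the sources used here. Oip5 stood at 1.603 to 12.0 CPM in TP-DSCs and 4.602 to 8.29 CPM in DP-DSCs, and Rccd1 at 5.81 to 44.2 and 10.8 to 21.97 CPM. Oip5 and Rccd1 were both highest in TP-DSCs replicate 3, the library in which Nusap1 and Prc1 were also highest. In DP-DSCs Oip5 and Nusap1 were both highest in replicate 2 and lowest in replicate 1. Rccd1 was instead highest in DP-DSCs replicate 1 (21.97 CPM), where Prc1 was lowest (34.9 CPM) within that population. Whether reads of 1 gene were counted for the other was not tested. On the genome the protein-coding genes lie at chr7:135689784-135716361 (Mki67), chr2:119618298-119651244 (Nusap1), chr2:152847964-152895321 (Tpx2), chr7:80294450-80316259 (Prc1), chr9:22332012-22389188 (Anln), chr11:98992943-99024189 (Top2a), chr8:22168160-22185819 (Ckap2), chr2:129268210-129297212 (Ckap2l), chr1:139454772-139494091 (Aspm) and chr11:40701395-40733422 (Hmmr) (GRCm38).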

How the data were processed

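PolyA-selected RNA was sequenced with a stranded kit, per the labels' protocols. The authors deposited 1 raw read count per gene symbol and library, with no normalization apparent in the values. STAR 2.7.3a, Partek, DESeq2 3.5 and build mm10 are named per the submitters' processing notes. Roles and counting settings were not given in the sources used here. Rows for reads in no gene and for ambiguous reads (1.09 to 1.86% of reads) entered neither library sizes nor tests.

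Populations were grouped by the cell subtype label; replicates were numbered in order of deposit and pair no samples. Replicates of a population differed beyond counting noise (chi-square per degree of freedom 112 or more), so none was counted as deposited in duplicate. CPM is reads divided by all reads in genes. Fits used R 4.3.3 and edgeR 4.0.16 on counts (filterByExpr with minimum count 10 and minimum total 15, TMM scaling, quasi-likelihood F test). Benjamini-Hochberg adjustment ran over all tested genes at 0.05. The edgeR test was also run on simulated counts, and how well it recovered known changes there is not given here. The common coefficient of variation between replicates was 0.75, so an absence of calls does not show equal levels. The SE was obtained from the fold change and F (their quotient with F under a square root). Log2 CPM used a prior count of 2. Alternatives were DESeq2 1.42.0, limma-voom (limma 3.58.1), other scalings and filters, the prefix as a block, prefix 4140 alone, each library left out, and removal of a spline trend (4 degrees of freedom each) on transcript G and C content and length, which 94.1% of tested genes had.

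The genes and lists were chosen with earlier results of these data known. Named were all 10 genes, the 3 genes per list with the smallest edgeR p, the 5 genes nearest to Mki67 and to the mean profile, and the 2 most abundant markers of each other cell type.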

Additional observations from a re-analysis of the deposited data

Results flagged for a closer look

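Reads that fell in no gene, which enter no comparison, made up 18.6% on average in TP-DSCs, above the 14.9% average and the highest library of DP-DSCs (15.4%). Its part in the levels of Mki67 and the other 9 genes was not tested.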

How the results depend on the processing

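Over 170 recomputed log2 fold changes of the 10 genes (TP-DSCs over DP-DSCs), 168 stayed above 0. Both exceptions were Tpx2, and 1 value moved by more than its replicate SD. The median of the 10 ran from 0.63 to 1.09 with each library left out. DESeq2 called 278 genes over the whole table and 93 over the filtered genes, a setting added after seeing the data, against 0 in edgeR. In the spindle and midzone list it called 4 and 2, and in the chromosome structure list 1 and 1, against 0 in edgeR. For prefix 4140 over 3840 it called 2 and 4 of the 10 genes, beside 702 of 12604 and 1177 of 11925 tested genes. Genes with all TP-DSC libraries on top numbered 2 of the 10 over all libraries (3.87% of tested genes). In prefix 4140 alone they numbered 6 (17.2% of tested genes), a looser criterion with 2 libraries of each population. With the G and C and length trend removed, 3 genes had the TP-DSC order of replicate 2, 3, 1, against 5 in plain CPM. The same order in DP-DSCs held for 8 genes in plain CPM. It held for 6 with TMM scaling or with that trend removed, and for 7 with DESeq2 or upper-quartile factors. The prefix fold change of Ckap2l was -0.37 in limma-voom. With each library left out, prefix fold changes ran over -0.60 to 0.59 for Ckap2l, 0.10 to 2.13 for Ckap2, -0.17 to 0.85 for Aspm and -0.20 to 0.32 for Mki67, and the median of the exit and arrest list over -0.28 to 0.15. The causes were not tested. Libraries were not paired 1 to 1 between populations, because the labels give no shared replicate numbers. The library prefix, which the labels do not explain, was fitted as a block and left the calls at 0. With that block the log2 fold change of Top2a was 0.74 ± 0.16 (SE), against 0.76 ± 0.34 without it. That of Prc1 was 0.83 ± 0.21, against 0.83 ± 0.34. The SE was larger with the block for Ckap2l (0.65 against 0.60) and Aspm (0.55 against 0.52), and smaller for the other genes of the set. The lowest count of the 10 genes was 327 reads, far above the 3 counts that a count of 0 allows. How many molecules those reads stand for was not tested, and 3 libraries a population limit every comparison.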
